A study of Mus musculus with 4 samples.

Results

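The genes of fatty acid synthesis, fatty acid oxidation and lipid storage were examined in testis RNA of mice that lack Tas1r3 (KO) and of wild-type mice (WT). Tas1r3 encodes a taste receptor protein that sweet and umami receptors have in common. The set holds 32 genes named by symbol, of 17924 gene symbols in the deposited table, and all 32 reached 1 CPM (assigned reads scaled to a library total of 1000000) in at least 2 libraries, as did 17744 genes in all. By role, 10 genes belong to synthesis and desaturation, 9 to oxidation and 13 to storage and handling. Bulk RNA of whole testis was sequenced from 2 KO samples (genotype Tas1r3 KO) and 2 WT samples. Both groups were male C57BL/6 mice on a normal diet for 18 weeks; the labels state neither their age, nor which stretch of Tas1r3 was deleted, nor whether a sample is 1 animal. P-values therefore measure only the spread between these samples, which may be technical.

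Cells make fatty acids in the cytosol from acetyl units, lengthen and desaturate them at the endoplasmic reticulum, and store them as triglyceride and sterol ester in lipid droplets. Lipases free them again, and carnitine transfer brings them into mitochondria for stepwise beta-oxidation. Testis is rich in very long polyunsaturated fatty acids made by elongases and desaturases, Sertoli cells carry lipid droplets and take up the bodies that spermatids shed, and Leydig cells store sterol esters for steroid synthesis.

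The libraries differed in depth. An estimated 748637 and 597937 assigned reads stood behind KO samples 1 and 2, and 1719356 and 1807694 behind WT samples 1 and 2, so WT was 2.62 times deeper on average, and for genes with few reads depth and genotype cannot be told apart. The value of 3 reads was 4.01 and 5.02 CPM in the KO samples and 1.74 and 1.66 CPM in the WT samples. The targeted gene had 1.34 and 0 CPM in KO, against 13.8 and 20.5 CPM in WT; not even this difference passed (log2 fold change -3.54, SE 0.60, limma adjusted p = 0.942). Germ cell, Sertoli cell and Leydig cell markers were present in every library. Over 10 germ cell markers the summed level ran from 19876 to 30231 CPM in KO and from 23715 to 23783 CPM in WT, with the high end in KO sample 2. That sum is mostly the 4 protamine and transition protein genes, and the other 6 germ cell markers summed to 791 and 693 CPM in KO samples 1 and 2 and to 743 and 654 CPM in WT. Over 10 Sertoli cell markers it was 1405 to 1700 CPM in KO and 1599 to 1630 CPM in WT, and over 8 Leydig cell markers 1650 to 1697 CPM in KO and 1810 to 1899 CPM in WT. The Leydig cell sum is mostly Insl3; the other 7, separated after their values were seen, summed to 417 and 419 CPM in KO and to 293 and 435 CPM in WT, and 4 of the 8 were above 0 in log2 fold change and 4 below. Of 8 adipocyte markers 7 were in the table, with summed levels of 19.0 and 33.4 CPM in KO samples 1 and 2 and 51.5 and 19.9 CPM in WT samples 1 and 2. Of these 7, 1 was highest in KO sample 1, 3 in KO sample 2 (among them Adipoq) and 3 in WT sample 1. Of 6 epididymis markers only 1, Crisp1, was in the table. It was listed at 0 in both KO samples and in WT sample 2, and at 40.7 CPM in WT sample 1.

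Several of the genes have listed transcripts with different starts, and 2 of the genes form a head-to-head pair. The start regions of Acsl1 and Lipe are shown as examples of genes whose reads the authors divided between transcripts from different starts. Others of this kind, among them Elovl2 and Mgll, are not shown. The start region of Hadha is shown because it nearly fills the gap to Hadhb. The windows come from RefSeq on GRCm38.p6, run from 250 bases before to 50 bases after the start, and read 5′ to 3′ on the strand of the gene. Capitals mark matches on either strand to the GC box GGGCGG, the CCAAT box, the TATA box TATAAA and TGACG, the core of the cyclic AMP response element; some GC boxes overlap each other.
Acsl1 outer start, chr8:46470787-46471086, plus strand: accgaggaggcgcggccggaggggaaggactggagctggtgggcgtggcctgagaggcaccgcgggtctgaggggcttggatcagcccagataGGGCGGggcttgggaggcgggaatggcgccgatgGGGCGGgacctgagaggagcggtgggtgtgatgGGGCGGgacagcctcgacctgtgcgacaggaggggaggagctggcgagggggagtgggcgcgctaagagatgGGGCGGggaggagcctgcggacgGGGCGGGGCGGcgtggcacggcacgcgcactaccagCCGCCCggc
Acsl1 inner start, chr8:46490716-46491015, plus strand: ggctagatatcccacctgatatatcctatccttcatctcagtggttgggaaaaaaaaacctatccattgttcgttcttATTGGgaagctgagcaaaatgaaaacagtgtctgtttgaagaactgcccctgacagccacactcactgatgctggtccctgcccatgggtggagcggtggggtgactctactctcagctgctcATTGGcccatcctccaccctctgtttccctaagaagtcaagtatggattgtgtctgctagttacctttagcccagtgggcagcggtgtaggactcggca
Lipe outer start, chr7:25395938-25396237, minus strand: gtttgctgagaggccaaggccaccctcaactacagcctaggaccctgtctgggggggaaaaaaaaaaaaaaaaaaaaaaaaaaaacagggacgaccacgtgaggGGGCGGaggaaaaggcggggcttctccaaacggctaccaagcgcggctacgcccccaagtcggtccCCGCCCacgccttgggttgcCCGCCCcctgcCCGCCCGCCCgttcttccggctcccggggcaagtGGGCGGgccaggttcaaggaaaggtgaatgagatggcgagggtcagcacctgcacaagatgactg
Lipe inner start, chr7:25390063-25390362, minus strand: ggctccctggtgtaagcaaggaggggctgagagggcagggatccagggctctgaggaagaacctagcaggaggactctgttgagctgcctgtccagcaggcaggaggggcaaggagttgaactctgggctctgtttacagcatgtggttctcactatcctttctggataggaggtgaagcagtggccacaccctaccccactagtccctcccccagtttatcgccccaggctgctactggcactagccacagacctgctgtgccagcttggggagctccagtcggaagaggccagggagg
Hadha start, chr5:30154931-30155230, minus strand: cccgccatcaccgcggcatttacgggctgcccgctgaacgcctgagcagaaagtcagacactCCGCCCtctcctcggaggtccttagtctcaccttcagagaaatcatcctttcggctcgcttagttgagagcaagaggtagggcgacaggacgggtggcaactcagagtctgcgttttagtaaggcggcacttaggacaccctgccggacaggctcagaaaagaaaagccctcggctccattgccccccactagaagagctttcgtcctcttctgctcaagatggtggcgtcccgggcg

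The printed outer and inner windows differed in GC boxes for Acsl1 and Lipe, and clearly in base composition only for Acsl1. The outer windows of Acsl1 and Lipe were 74% and 61% G or C and held 7 and 6 GC boxes. The inner windows were 50% and 60% G or C and held no GC box, and that of Acsl1 held 2 CCAAT boxes. Other genes with windows at more than 1 start were mixed. Elovl2 held 5 GC boxes in its outer window and 0 in its inner window, and Mgll held 1 in each. The outer windows of Srebf1 and Gpam held 0, against 3 and 2 in the inner windows of Srebf1 and 1 in that of Gpam. The Hadha window held 1 GC box; it covers 250 of the 272 bases of the gap to Hadhb, and the gap as a whole held 2. Windows were found for 26 of the 32 genes (all but Fads1, Dgat2, Cpt1b, Dgat1, Scd2 and Scd1), 33 windows in all, and 63.6% of them held a GC box, against 35.9% of 32544 distinct windows of all genes. A CCAAT box was in 30.3% of them against 37.4% of all windows, a TATA box in 3.03% against 13.6%, and TGACG in 24.2% against 20.9%. The median share of G or C was 62.3% in the windows of the set and 53% in all windows. The part of base composition in these differences was not tested, and the matches are of letters only.

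Per unit of transcript length, the storage and handling genes held 4 of the 5 highest levels of the set. Levels between genes are compared here as CPM per kilobase of transcript. Acsl1, an acyl-CoA synthetase that activates long fatty acids, led with 184 CPM per kilobase in KO and 204 CPM per kilobase in WT, above 97.3% of tested genes. It was followed by Dgat2, which completes triglyceride (131 in KO and 131 in WT), Fabp3, a fatty acid carrier of the cytosol (93.4 and 126), Cpt1b, a gate enzyme of mitochondrial import (108 and 109), and Pnpla2, the first lipase of droplet triglyceride (100.1 and 110.6), all in CPM per kilobase. Hadha stood at 88.6 in KO and 88.8 in WT, Lipe at 78.9 and 88.4, and Elovl2 at 54.4 and 54.0 CPM per kilobase. Only 4 neighbours in this order kept apart in all libraries: Acsl1 stayed above Dgat2, Lipe above Elovl2, Elovl2 above Fads2 and Scd2 above Fads1, while the other 27 neighbouring pairs overlapped. Ppara, a transcription factor of oxidation genes, was last at 0.35 CPM per kilobase in KO and 0.77 in WT.

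**Figure D1:**
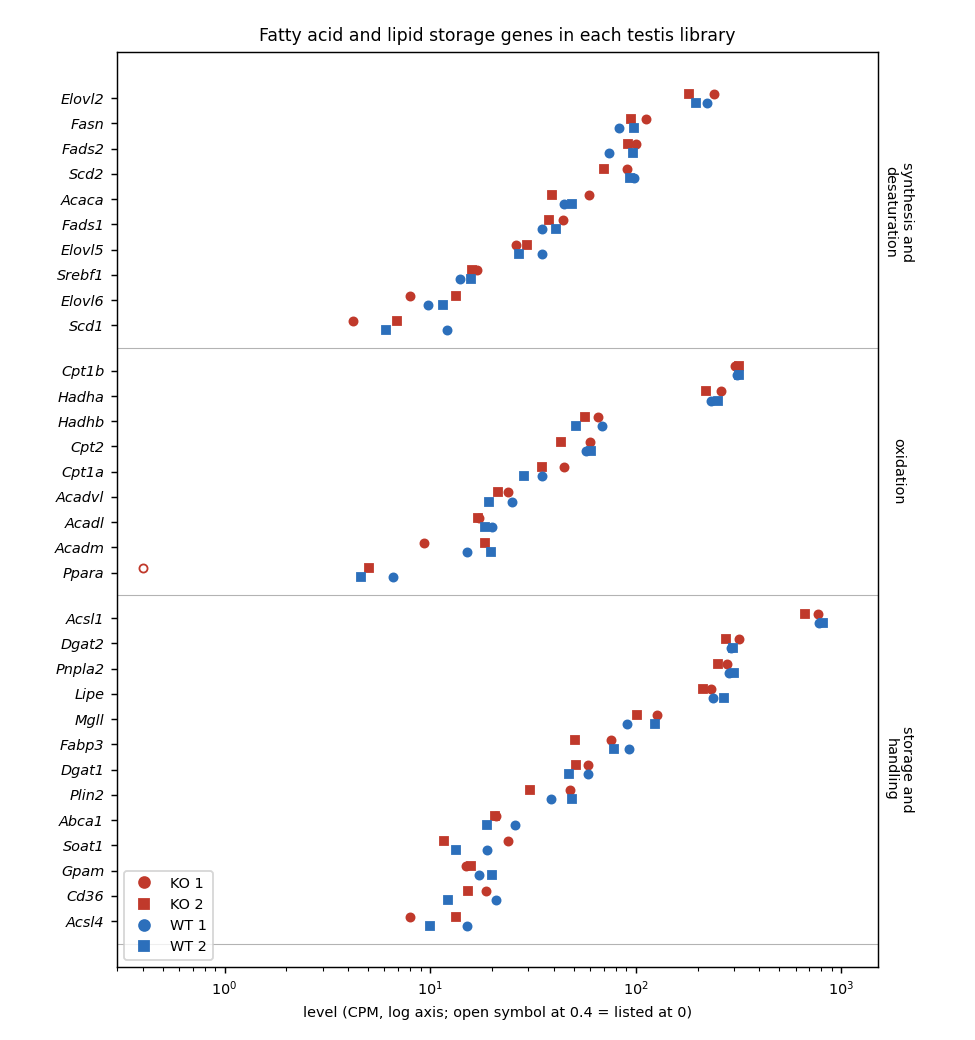
Level in CPM (horizontal, log axis) of each of the 32 genes in the 4 libraries, KO in red above WT in blue, circles for sample 1 and squares for sample 2, grouped by role and sorted by mean. The genotypes interleave for most genes, and the open circle is Ppara, listed at 0 in KO sample 1.

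No gene of the set differed between KO and WT testis past the threshold. In limma, with p-values adjusted by Benjamini-Hochberg across the 17744 genes, 0 of 32 had an adjusted p under 0.05, where 0.00564% of all genes did, and 0 of 32 had an unadjusted p under 0.05, where 4.69% of all genes did. By direction, 4.69% divides into 1.37% higher and 3.33% lower in KO. The fitted log2 fold change, KO over WT on log2(CPM + 1), was above 0 for 12 genes and below 0 for 20 (62.5%); among all tested genes 44.6% were above 0 and 55.4% below. The count above 0 was 17 without KO sample 2, 8 without KO sample 1 and 15 with trimmed-mean scaling, so the majority direction turned with 1 library. The median was -0.02 over the set and -0.05 over all tested genes, and that of the set was 0.07 without KO sample 2. Genotypes did not overlap for 9 genes. Of these, 7 (21.9%) were lower in KO, where 19.4% of all genes were, and 2 (6.25%) were higher in KO, where 15.0% were.

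The intervals show how large a difference the data leave room for. For 27 of the 32 genes (84.4%) the 95% interval of the fold change lay within a 2-fold change either way, against 41.3% of all tested genes. The 5 genes with wider intervals were Scd1, Acadm, Ppara, Soat1 and Acsl4, which all had a mean under 20 CPM. All 22 genes that averaged 20 CPM or more were within it, as were 88.04% of the 7366 tested genes at that level. Summed over the 32 genes, the level was 3257 ± 315 CPM in KO and 3417 ± 74.2 CPM in WT (SD, n = 2 each).

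**Figure D2:**
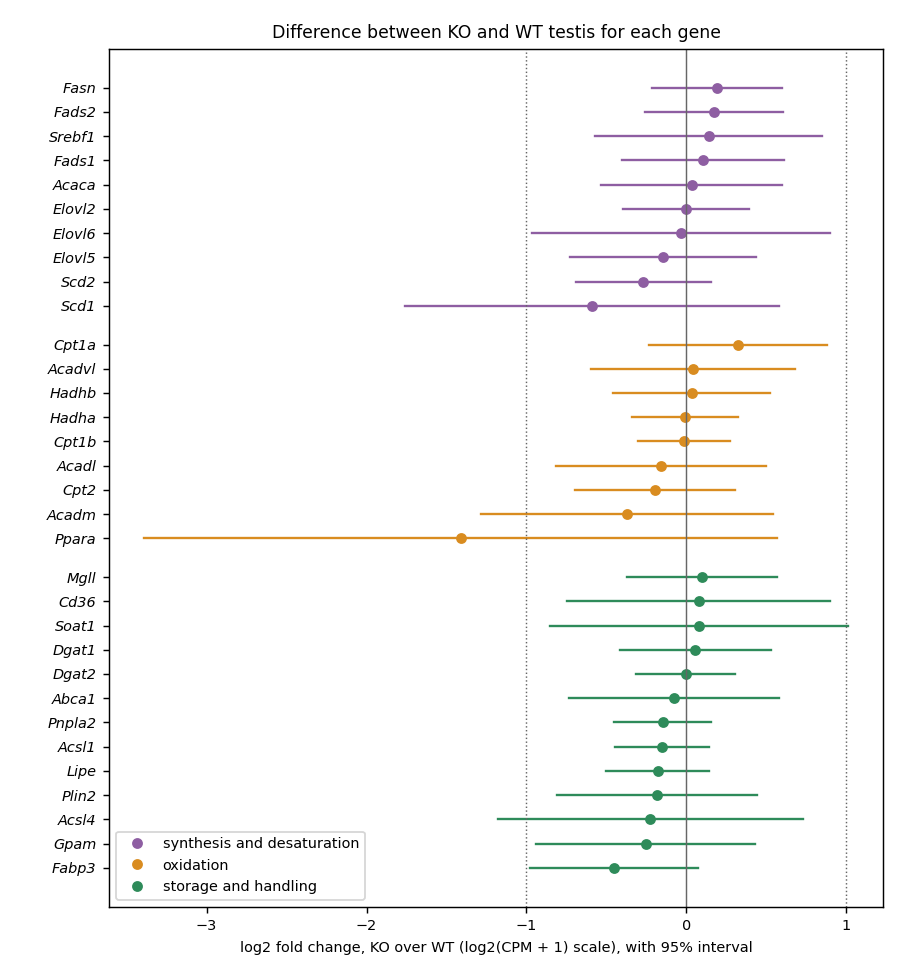
Log2 fold change of KO over WT (points, log2(CPM + 1) scale) with its 95% interval from limma (lines), by role; dotted lines mark a 2-fold change. Every interval includes 0, and 5 reach past a dotted line.

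The genes that make and desaturate fatty acids had a median log2 fold change of 0.02, with 5 of 10 above 0, 5 below and 0 past the test; the median was 0.19 without KO sample 2, -0.03 without KO sample 1, 0.09 without WT sample 2 and -0.01 without WT sample 1. Their summed level was 701 and 582 CPM in KO samples 1 and 2 and 629 and 637 CPM in WT samples 1 and 2. Fasn, which builds palmitate, was at 111.7 and 94.9 CPM in KO and at 82.7 and 97.7 CPM in WT. The genotypes overlapped (log2 fold change 0.19, SE 0.18, limma adjusted p = 0.942). Acaca, the carboxylase that supplies malonyl-CoA to Fasn, was at 59.2 and 39.0 CPM in KO and at 45.0 and 49.0 CPM in WT, with both WT samples between the KO samples. Srebf1, the transcription factor that controls these enzymes in liver, was at 16.9 and 16.05 CPM in KO and at 14.0 and 15.8 CPM in WT. It was the 1 synthesis gene with both KO samples above both WT samples, by a margin of under 1 read, at a log2 fold change of 0.14 (SE 0.31, limma adjusted p = 0.970).

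The desaturase genes Scd1 and Scd2, whose products put the first double bond into saturated fatty acids, lie on opposite strands of chromosome 19 with starts 114033 bases apart and Scd4 between them (mm39 44382889 to 44396148 for Scd1 and 44282115 to 44295301 for Scd2). Scd2 was the main form: Scd2 over Scd1, each in CPM per kilobase, was 19.0 and 9.07 in KO and 7.21 and 13.7 in WT. Scd2 was at 90.3 and 70.1 CPM in KO and at 98.4 and 93.8 CPM in WT. KO was lower without overlap, but the difference did not pass (log2 fold change -0.27, SE 0.18, limma adjusted p = 0.942). Scd1 rested on few reads. It was at 4.21 and 6.87 CPM in KO, about 3 and 4 reads, and at 12.1 and 6.09 CPM in WT, about 21 and 11 reads, so only WT sample 1 stood out. The log2 fold change with all samples, -0.59 (SE 0.51, limma adjusted p = 0.942), was -0.15 without WT sample 1. That sample also had the highest summed adipocyte markers (51.5 CPM, against 19.0 to 33.4 CPM in the others), carried by Cfd, Cidec and Fabp4, while Adipoq was at 9.35 and 18.4 CPM in KO and at 15.7 and 11.1 CPM in WT; the part of these in the Scd1 values was not tested.

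Elovl2 and Fads2, which lengthen and desaturate polyunsaturated fatty acids and are needed for sperm formation in mice, were the leading genes of that branch. Elovl2 was at 240.4 and 182 CPM in KO and at 223 and 197 CPM in WT. The KO samples enclosed the WT samples, and the 95% interval of its fold ran from 0.76 to 1.31. Fads2 was at 100.1 and 92.0 CPM in KO and at 74.2 and 97.2 CPM in WT. Its neighbour Fads1, the other front-end desaturase, was at 44.1 and 37.9 CPM in KO and at 35.0 and 41.1 CPM in WT. The balance of the pair hardly varied: Fads2 over Fads1 in CPM was 2.27 and 2.43 in KO and 2.12 and 2.36 in WT. Elovl5, an elongase of the same branch, was at 26.1 and 29.8 CPM in KO and at 35.1 and 27.2 CPM in WT, and Elovl6, which lengthens saturated fatty acids, was between 8.01 and 13.4 CPM in KO and between 9.72 and 11.6 CPM in WT.

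Oxidation genes had a median log2 fold change of -0.01, with 3 of 9 above 0, 6 below and 0 past the test; the median was 0.03 without KO sample 2, -0.07 without KO sample 1, -0.15 without WT sample 2 and -0.06 without WT sample 1. Their summed level was 787 and 736 CPM in KO and 771 and 772 CPM in WT. Cpt1b and Cpt1a encode forms of the outer-membrane carnitine palmitoyltransferase, the regulated step of import. Cpt1b was at 305 and 318 CPM in KO and at 311 and 319 CPM in WT, and had the narrowest interval of the set, a fold of 0.81 to 1.21. Cpt1b shares 9458 bases of chromosome 15 with Gm44502, a same-strand gene model that runs on over its neighbour and was listed at 3.67 and 6.77 CPM in KO and at 7.25 and 28.3 CPM in WT, so reads could be divided between them. Cpt1a was at 45.0 and 35.1 CPM in KO and at 34.9 and 28.6 CPM in WT. Both KO samples of Cpt1a lay above both WT samples, KO sample 2 by less than 1 read; the log2 fold change of 0.32 (SE 0.24, limma adjusted p = 0.942) did not pass. Cpt1b exceeded Cpt1a 10.1 and 13.5 times in KO and 13.3 and 16.6 times in WT, in CPM per kilobase, with overlap between the genotypes. Cpt2, the inner-membrane partner, was at 60.1 and 43.5 CPM in KO and at 57.0 and 60.6 CPM in WT.

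Hadha and Hadhb encode the 2 subunits of the mitochondrial trifunctional protein, and their starts lie 273 bases apart on chromosome 5 (mm39 30324421 to 30359978 on the minus strand for Hadha, 30360251 to 30389591 on the plus strand for Hadhb). Hadha was at 260 and 221 CPM in KO and at 232 and 250.4 CPM in WT. Hadhb was at 65.3 and 56.4 CPM in KO and at 68.6 and 51.2 CPM in WT. Hadhb reached 0.33 and 0.34 of Hadha in KO and 0.39 and 0.27 in WT, in CPM per kilobase.

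The acyl-CoA dehydrogenases, which catalyse the first oxidation step, were at lower levels. Acadvl, for very long chains, was at 24.0 and 21.4 CPM in KO and at 25.0 and 19.3 CPM in WT. Acadl, for long chains, was at 17.4 and 17.0 CPM in KO and at 20.1 and 18.5 CPM in WT, without overlap, at a log2 fold change of -0.16 (SE 0.28, limma adjusted p = 0.963). Acadm, for medium chains, was at 9.35 and 18.4 CPM in KO and at 15.1 and 19.8 CPM in WT. About 7 reads stood behind the low value in KO sample 1.

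Ppara had the most negative fitted difference of the set and the fewest reads. It was listed at 0 CPM in KO sample 1 and at 5.02 CPM in KO sample 2, and at 6.59 and 4.62 CPM in the WT samples. These are about 0 and 3 reads in KO and 11 and 8 reads in WT, a ratio after scaling for depth of 0.41 (exact interval at the 95% level 0.078 to 1.4, counting error only). The fit gave a log2 fold change of -1.41 (SE 0.86, limma adjusted p = 0.942), -0.12 without KO sample 1 and -2.71 without KO sample 2, where it passed (limma adjusted p = 0.0057), as did 3.20% of all tested genes. The group fold thus rests on the library in which it was listed at 0, and a 0 there allows up to 4.01 CPM.

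Storage and handling genes had a median log2 fold change of -0.15, with 4 of 13 above 0, 9 below and 0 past the test. The median was -0.05 without KO sample 2, -0.21 without KO sample 1 and -0.07 with only the most abundant transcript of each gene. Their summed level was 1992 and 1717 CPM in KO and 1965 and 2062 CPM in WT. For 5 of the 13 (38.5%) KO was lower without overlap, where 19.4% of all tested genes were; these were Fabp3, Lipe, Pnpla2, Acsl1 and Gpam. None was higher in KO without overlap. The 5 myoid cell markers summed to 85.7 and 86.5 CPM in KO and to 105 and 114 CPM in WT, without overlap. The 6 blood cell markers in the table summed to 35.8 and 59.2 CPM in KO and to 53.0 and 188 CPM in WT, and the 6 macrophage markers to 44.7 and 59.7 CPM in KO and 49.9 and 58.3 CPM in WT. The part of these cell types in the values was not tested. In bulk tissue, fewer cells of a type and less RNA per cell cannot be told apart.

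Fabp3 had the smallest p of the set. It was at 76.1 and 50.9 CPM in KO and at 93.0 and 78.5 CPM in WT. The gap between the nearest KO and WT samples was small beside that between the KO samples. The log2 fold change was -0.45 (SE 0.23, unadjusted p = 0.084 and adjusted p = 0.942 in limma), a fold of 0.73 with a 95% interval of 0.51 to 1.05. Without KO sample 1 it was -0.73 and passed (limma adjusted p = 0.0060), and without KO sample 2 it was -0.17 (limma adjusted p = 0.686). Without KO sample 1, 7.04% of all tested genes passed. Fabp3 lies on chromosome 4, as the targeted gene does, but 25.7 Mb away.

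The enzymes of the droplet itself were among the best measured. Lipe, the hormone-sensitive lipase that male mice need for fertility, was at 232 and 213 CPM in KO and at 237 and 268 CPM in WT (log2 fold change -0.18, SE 0.14, limma adjusted p = 0.942). Pnpla2 was at 276 and 252 CPM in KO and at 283 and 302 CPM in WT, with a log2 fold change of -0.15 (SE 0.13, limma adjusted p = 0.942). For both lipases KO was lower without overlap, and both intervals included 0. Mgll, which takes the last fatty acid off the glycerol, was at 127 and 102 CPM in KO and at 90.4 and 124 CPM in WT, with overlap.

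The genes that activate fatty acids and build triglyceride were as follows. Acsl1 was at 771 and 665 CPM in KO and at 775 and 819 CPM in WT, with KO sample 1 just below WT sample 1 (log2 fold change -0.15, SE 0.13, limma adjusted p = 0.942). Dgat2 was at 317 and 274 CPM in KO and at 292 and 299 CPM in WT, and the KO samples enclosed the WT samples, with a 95% interval of the fold of 0.80 to 1.24. Dgat1, an unrelated enzyme of the same step, was at 58.4 and 51.4 CPM in KO and at 58.7 and 47.2 CPM in WT. The balance of these diacylglycerol acyltransferases stayed close, with Dgat1 over Dgat2 in CPM at 0.184 and 0.188 in KO and at 0.201 and 0.158 in WT. Gpam, the mitochondrial enzyme that starts glycerolipid synthesis, was at 15.0 and 15.8 CPM in KO and at 17.2 and 19.9 CPM in WT, which is about 20 reads in KO and 66 in WT. Acsl4, an acyl-CoA synthetase for arachidonate on the X chromosome, was at 8.01 and 13.4 CPM in KO and at 15.1 and 9.98 CPM in WT, at most 0.0201 of Acsl1 in CPM in any library.

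The remaining handling genes overlapped between the genotypes. Plin2, a coat protein of lipid droplets, was at 47.8 and 30.6 CPM in KO and at 38.6 and 49.1 CPM in WT. Abca1, which exports cholesterol, was at 21.0 and 20.7 CPM in KO and at 25.8 and 18.8 CPM in WT. Soat1, which makes sterol esters, was at 24.0 and 11.7 CPM in KO and at 18.9 and 13.4 CPM in WT. Cd36, a scavenger receptor and fatty acid transporter, was at 18.7 and 15.4 CPM in KO and at 20.9 and 12.2 CPM in WT, highest in WT sample 1.

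The KO samples differed from each other in a shared direction. Of the 22 genes that averaged 20 CPM or more, 20 (90.9%) were higher in KO sample 1 than in KO sample 2, with a median difference of 0.21 in log2(CPM + 1). Among all 7366 tested genes at that level 56.6% were, with a median of 0.07. Between WT samples 1 and 2, 9 of the 22 (40.9%) were higher in sample 1, with a median of -0.06. Over the 32 genes, KO sample 2 was the lowest library for 13 (40.6%) and the highest for 1 (3.12%), where among all tested genes it was the lowest for 33.3% and the highest for 28.3%. The median difference between genotype means for the 22 genes was -0.01. Regardless of sign, its median size was 0.13, against 0.21 between the KO samples and 0.23 between the WT samples. Means of 2 samples vary less than single samples, so these are unlike measures. KO sample 2 was also the library with the highest transition protein levels, with Tnp1 at 4590 and 8148 CPM in KO samples 1 and 2 and at 5457 and 5627 CPM in WT, while 5 of the 6 remaining germ cell markers listed apart above, and 9 of 10 Sertoli cell markers, were higher in KO sample 1 than in KO sample 2; the part of these in the lower levels was not tested.

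**Figure D3:**
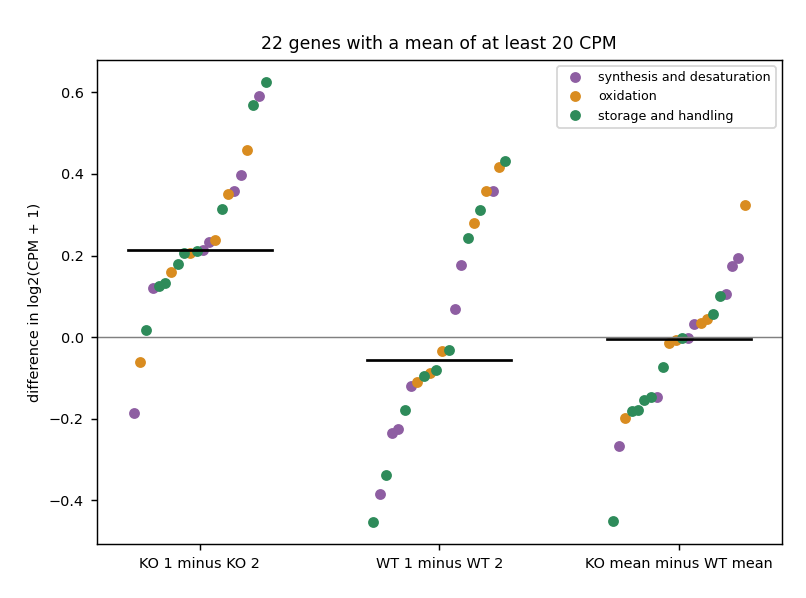
Difference in log2(CPM + 1) for the 22 genes that averaged 20 CPM or more, between the KO samples (left), between the WT samples (middle) and between KO and WT means (right); points are genes coloured by role and black bars are medians. The median is 0.21 in the left column and -0.01 in the right column.

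Transcript rows gave the same call as gene sums. Of the 32 genes, 21 had 1 listed transcript and 11 had more, 52 transcripts in all, of which 48 passed the filter. When limma was run over every transcript listed, 0 of the 48 had an adjusted p under 0.05, as did 0.0% of 27539 transcripts, and 5 (10.4%) had an unadjusted p under 0.05, where 7.56% of all transcripts did. Genotypes did not overlap for 14 of the 48 (29.2%), where 34.6% of all did. Of the 14, 12 were lower in KO and 2 higher. The share in each direction was not counted over all transcripts, so the split of 12 and 2 has no matching background and no tilt is read from it. Transcripts of 1 gene also share its reads and are not independent. Genes are another unit: among all tested genes, 19.4% were lower and 15.0% higher in KO without overlap. The division of reads between transcripts is the authors'.

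For Acsl1 the division between transcripts was close within a genotype. The outer and inner starts of Acsl1 lie 19929 bases apart in both mm39 and GRCm38. The outer transcript (NM_007981) was at 451 and 376 CPM in KO and at 406 and 428 CPM in WT. The inner transcript (NM_001302163) was at 320 and 289 CPM in KO and at 368 and 391 CPM in WT, lower in KO without overlap (log2 fold change -0.32, SE 0.12, limma adjusted p = 0.679). The outer transcript, whose start has the GC-rich window printed above, was thus given 58.5% and 56.5% of Acsl1 in KO and 52.5% and 52.3% in WT.

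In Lipe the transcript from the inner start led. This transcript (NM_001039507), whose start lies 5875 bases inside the outer start, was at 207 and 193 CPM in KO and at 201 and 209 CPM in WT. The outer transcript (NM_010719) was at 25.1 and 20.4 CPM in KO and at 35.6 and 58.9 CPM in WT, lower in KO without overlap (log2 fold change -0.99, SE 0.35, limma adjusted p = 0.624). It made up 10.8% and 9.57% of Lipe in KO and 15.1% and 22.0% in WT. The opposite-strand gene model 4732471J01Rik covers Lipe and was at 19.8 and 6.08 CPM in KO and at 10.3 and 7.75 CPM in WT; the sources do not say whether strand was used in counting.

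A minor transcript of Pnpla2 and a transcript of Hadhb were also lower in KO without overlap. The noncoding Pnpla2 transcript (NR_028142) was at 22.3 and 21.7 CPM in KO and at 34.4 and 52.7 CPM in WT (log2 fold change -0.93, SE 0.32, limma adjusted p = 0.608). The main Pnpla2 transcript was at 253 and 227 CPM in KO and at 245 and 246 CPM in WT. The Hadhb transcript NM_145558 was at 6.44 and 9.48 CPM in KO and at 21.2 and 17.4 CPM in WT (log2 fold change -1.20, SE 0.44, limma adjusted p = 0.633). The other transcripts of Hadhb were at 22.4 to 30.8 CPM in KO and 16.1 to 24.8 CPM in WT. All of them are listed with the same start and end and are 2028 to 2075 bases long, so their levels depend on the division of reads. The Hadhb gene sum had a log2 fold change of 0.03. Of the transcripts with an unadjusted p under 0.05, the remaining pair belonged to Cd36 and Srebf1, which have under 20 CPM as genes. The Srebf1 transcript NM_001358314 was at 0.012 and 0.43 CPM in KO and at 7.46 and 4.24 CPM in WT (log2 fold change -2.47, SE 0.64, limma adjusted p = 0.508). NM_011480, from a start further upstream, was at 16.6 and 14.5 CPM in KO and at 5.71 and 10.1 CPM in WT (log2 fold change 0.94, SE 0.49, limma adjusted p = 0.840). Behind all of Srebf1 stood about 13 and 10 reads in KO and 24 and 29 in WT.

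For other genes the division varied between samples of 1 genotype. Acsl4 transcript NM_207625 made up 3.0% and 99.1% of the gene in KO samples 1 and 2 and 98.5% and 3.0% in WT samples 1 and 2. In Gpam the transcript NM_008149 made up 3.36% and 91.1% in KO and 99.8% and 91.1% in WT. Some of these shares were equal in different libraries: 3.0003% for Acsl4 in KO sample 1 and WT sample 2, and 91.13% for Gpam in KO sample 2 and WT sample 2. The shares are those of the authors' division, and no transcript use is read from them. Cd36 had a different leading transcript in KO sample 1, in KO sample 2 and in the WT samples. Mgll, at over 90 CPM in each library, also varied: NM_001166251 made up 74.6% and 30.3% in KO and 89.0% and 60.5% in WT. In Elovl2 the share of the outer transcript NM_019423 was 40.1% and 23.5% in KO and 39.2% and 21.1% in WT, a split between samples of a genotype and not between genotypes.

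**Figure D4:**
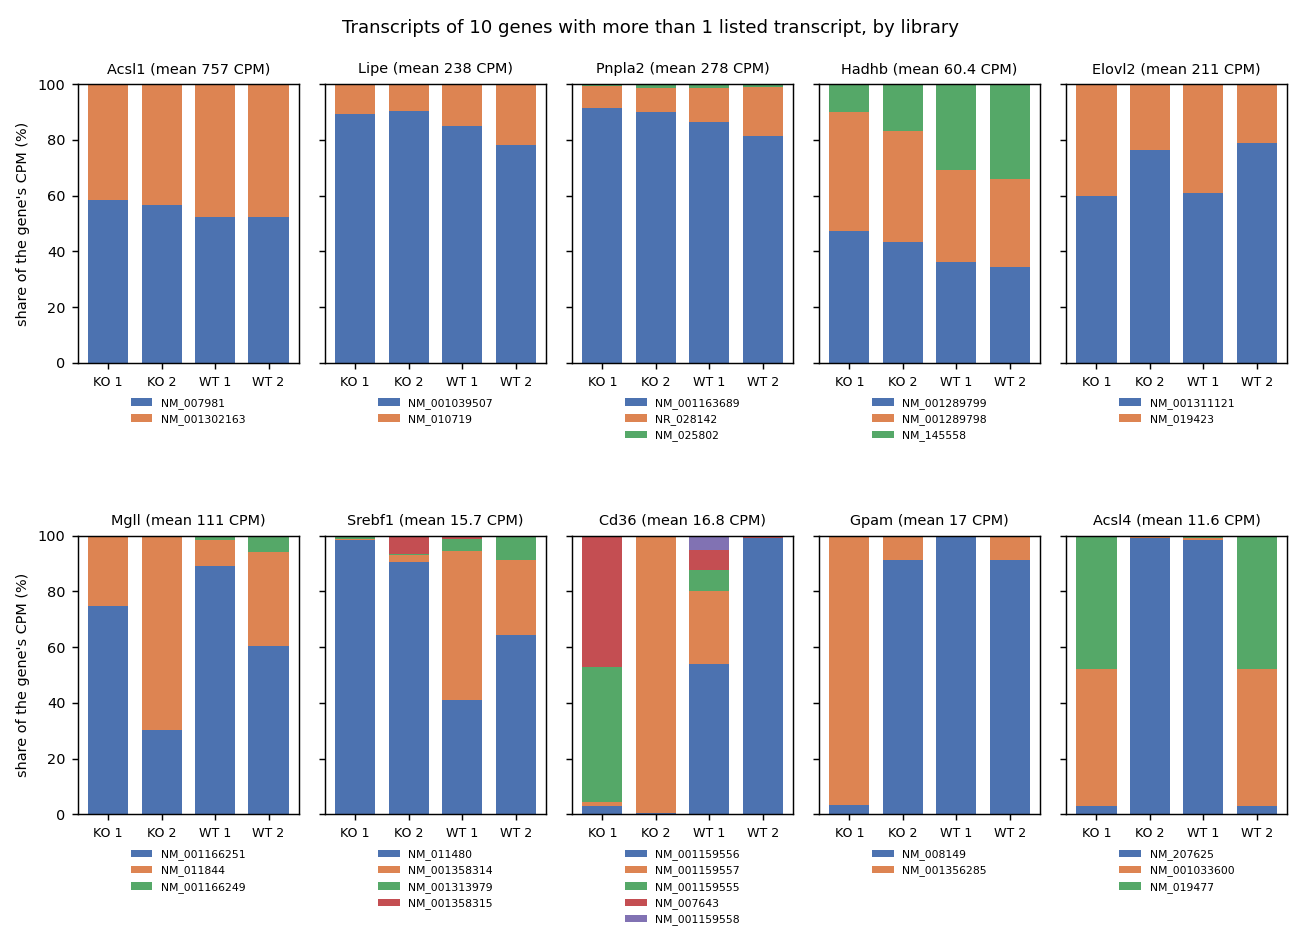
Share of the CPM of a gene (vertical, percent) given to each of its listed transcripts in KO samples 1 and 2 and WT samples 1 and 2, for 10 genes with their mean level in the panel titles. The outer Acsl1 transcript takes 58.5% and 56.5% in KO and 52.5% and 52.3% in WT. The leading transcript of Cd36, Mgll and Acsl4 differs between the KO samples, and in Gpam KO sample 1 differs from the other libraries. Shares are those of the authors' division of reads, and no transcript use is read from them.

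Other genes of the same pathways, 118 in 3 lists of which 105 were tested, were also uncalled over all tested genes. In the wider synthesis list 9 of 25 tested genes were above 0 and 16 below (median -0.08). KO was lower without overlap for 4 (16%, against 19.4% of all tested genes) and higher for 4 (16%, against 15.0%). In each direction 1 gene had an unadjusted limma p under 0.05, where 3.33% of all tested genes did so lower in KO and 1.37% higher. Hsd17b12, a reductase of fatty acid elongation, was at 17.4 and 15.1 CPM in KO and at 5.43 and 10.5 CPM in WT, higher in KO without overlap (log2 fold change 0.997, SE 0.41, limma adjusted p = 0.942). Acacb, the carboxylase whose product restrains mitochondrial import, was at 16.2 and 11.6 CPM in KO and at 20.8 and 19.1 CPM in WT. Hacd1, a dehydratase of elongation, was at 5.21 and 19.1 CPM in KO and at 16.6 and 20.5 CPM in WT.

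In the wider oxidation list 18 of 37 were above 0 and 19 below (median -0.04). KO was lower without overlap for 13 (35.1%, against 19.4% of all tested genes) and higher without overlap for 3 (8.11%, against 15.0%). An unadjusted limma p under 0.05 was found for 2, both lower in KO, where 3.33% of all tested genes were. Those were Ehhadh and Acot1, which had 1 and 0 reads over the KO samples and 13 and 9 over the WT samples. Hsd17b4, a peroxisomal enzyme of beta-oxidation, was at 43.8 and 39.4 CPM in KO and at 30.6 and 30.1 CPM in WT, without overlap (log2 fold change 0.44, SE 0.22, limma adjusted p = 0.942). Ppargc1b, a coactivator of mitochondrial genes, had about 5 reads in KO and 32 in WT, and Hsd17b10, a mitochondrial dehydrogenase, about 6 and 31.

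In the wider storage and handling list 17 of 43 were above 0 and 26 below (median -0.09). KO was lower without overlap for 10 (23.3%, against 19.4% of all tested genes) and higher for 6 (14.0%, against 15.0%). Only 1 gene had an unadjusted limma p under 0.05, where 4.69% of all tested genes did. That gene, Gpat2, a testis-rich member of the acyltransferase family of Gpam, was at 68.1 and 81.9 CPM in KO and at 57.4 and 51.4 CPM in WT, higher in KO without overlap (log2 fold change 0.45, SE 0.19, limma adjusted p = 0.942). Fabp12, of the family of Fabp3, was at 60.0 and 69.3 CPM in KO and at 38.9 and 53.6 CPM in WT. Slc27a6, a fatty acid transporter, was at 17.4 and 16.7 CPM in KO and at 9.69 and 11.4 CPM in WT. The KO samples of Gpat2, Fabp12 and Slc27a6 thus lay above the WT samples, whereas those of Gpam and Fabp3 lay below. None of these differences passed. The first 3 were named for their small p, and their families did not share a direction. Gpat3, at 26.0 and 25.1 CPM in KO and 30.8 and 36.3 CPM in WT, was lower in KO without overlap, as were Fabp5, Slc27a2 and Slc27a4. Gpat4, Fabp4, Fabp9, Slc27a1 and Slc27a3 overlapped.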

How the data were processed

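Total testis RNA was made into libraries with an Ion Torrent total RNA kit, per the labels' protocols. STAR and Partek were used on mm39, per the submitters' processing notes, which give no settings. For every RefSeq transcript the authors deposited a CPM value, and each library sums to 1000000. The 4 sample tables equalled the series table. Transcripts were summed per symbol. The deposited stop lies 1 base past the last base and was lowered by 1. The step between low values was taken as 1 read; 23.0% to 48.1% of genes came out whole within 0.02 reads, so whole counts were not recovered and reads are rounded estimates. Intervals on reads and floors of 3 reads (95%, Clopper-Pearson) cover counting error only.

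The test was limma 3.58.1 (R 4.3.3), run on log2(CPM + 1) for genes that reached 1 CPM in 2 or more libraries, allowing the variance to follow the mean, with Benjamini-Hochberg adjustment and a threshold of 0.05; this scale understates changes of low genes. A permutation of 2 against 2 samples cannot go below p = 0.333 and was not used. Members and lists were chosen with earlier results of these data known. By rule, values were to be printed for members at 20 CPM or more, for those with an unadjusted p under 0.05 and for the 3 with the smallest p in each role, for transcripts at 5 CPM or more, and for the 3 genes of each wider list with the smallest p at 5 CPM or more; those beyond this rule were chosen after their values were seen. Alternatives covered the pseudocount, filter, scaling, trend, transcript choice, replicate block and each sample left out. Python 3.11.15, pandas 2.3.3, numpy 2.4.6, scipy 1.17.1 and matplotlib 3.10.9 were used.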

Additional observations from a re-analysis of the deposited data

How the results depend on the processing

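Under 13 alternatives, 0 of the 32 genes passed except without KO sample 1 (1, Fabp3; 7.04% of all genes passed) and without KO sample 2 (1, Ppara; 3.20%), so the count ran from 0 to 1. The count of genes with an unadjusted p under 0.05 was 1 with the most abundant transcript (Cd36), 1 with the replicate block (Fabp3), and from 0 to 5 with 1 sample left out. Over all genes, 1 passed; this became 0 with a pseudocount of 0.1, without a mean trend and with the most abundant transcript, 23 with the replicate block, and 0 to 1249 with 1 sample left out. The lone sample is then assumed to vary like the other group. Deviations of same-numbered samples did not correlate (r = -0.0054 across 17744 genes). With 2 samples per group this cannot decide whether the numbers pair the samples, and the labels do not say. With 1 sample left out, the median log2 fold change ran from -0.11 to 0.07 for the set, -0.028 to 0.19 for synthesis, -0.15 to 0.03 for oxidation and -0.21 to -0.048 for storage and handling, and 8 to 17 of the 32 genes were above 0.

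Signs turned as follows. Trimmed-mean scaling and quantile normalization gave 0.0068 and 0.0079 for Elovl2 and 0.0014 and 0.0037 for Hadha, and trimmed-mean scaling gave 0.0059 for Dgat2. The most abundant transcript gave -3.31 for Cd36 and -0.51 for Mgll. With 1 sample left out, log2 fold changes ran from -0.26 to 0.33 for Acaca, -0.20 to 0.20 for Elovl2, -0.32 to 0.033 for Elovl5, -0.37 to 0.31 for Elovl6, -0.0081 to 0.22 for Fads1, -0.018 to 0.37 for Fads2, -0.044 to 0.016 for Cpt1b, -0.43 to 0.032 for Cpt2, -0.82 to 0.082 for Acadm, -0.13 to 0.22 for Acadvl, -0.13 to 0.11 for Hadha, -0.17 to 0.24 for Hadhb, -0.29 to 0.45 for Cd36, -0.50 to 0.13 for Plin2, -0.29 to 0.14 for Abca1, -0.41 to 0.57 for Soat1, -0.56 to 0.11 for Acsl4, -0.10 to 0.21 for Dgat1, -0.11 to 0.10 for Dgat2 and -0.13 to 0.33 for Mgll. The cause was not tested. The other 12 genes kept their sign under every alternative. Depth limits Ppara and Scd1 most, at 3 and 7 reads over the KO samples.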
